A study of Mus musculus with 5 samples.

Results

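The antioxidant and redox genes are 39 genes whose products make, recycle or use the cell's defences against reactive oxygen, or, for 3 of them, belong to the NADPH oxidases that produce it. They were taken as a list of symbols, by a rule that uses no measured value. All 39 symbols were found in the deposited files, each with 1 Ensembl identifier, among 34615 symbols in all. Expression was measured by RNA sequencing of brain microvascular fragments from wild-type (WT) and *Ins2*-AKITA mice, in 3 and 2 libraries. Each library is labelled as its own replicate and is called a mouse below, although the labels do not say how many animals went into it. The *Ins2*-AKITA mice were heterozygous for the AKITA allele of the insulin gene *Ins2*, a model of lasting hyperglycemia, and the WT mice were their littermates. Every mouse was male, of the C57BL6 background and between 26 and 38 weeks old. The fragments were captured from enzymatically dissociated brain with beads against the endothelial protein PECAM1. The study describes them as holding pericytes and astrocyte end-feet along with endothelial cells. Markers of oligodendrocytes and neurons were also read in every library, with sums given below. In such bulk samples fewer cells of a type and less RNA per cell cannot be told apart. The comparison asks how the expression of these genes in the captured fragments differed between the *Ins2*-AKITA mice and their WT littermates.

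Cells keep reactive oxygen low by converting superoxide to hydrogen peroxide, and hydrogen peroxide to water, at the expense of the thiols glutathione and thioredoxin, which are then reduced again with NADPH. Many of the enzymes are driven by the transcription factor NRF2, encoded by *Nfe2l2*, which KEAP1 and the ubiquitin ligase subunit CUL3 hold at a low level until oxidants or electrophiles modify KEAP1. NRF2 binds DNA with small MAF proteins at the antioxidant response element, and hyperglycemia is widely studied as a source of oxidative load in the vessel wall.

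The core of that element, TGACNNNGC, was looked for on both strands in RefSeq promoter windows of build GRCm38.p6, which run from 250 bases before to 50 bases after the start of a gene. A window was held for 33 of the 39 genes, all but *Gclc*, *Gsr*, *Gsta4*, *Hmox1*, *Prdx6* and *Sod3*. A match lay in 9 of their 42 windows (21.4%), against 12.4% of 32851 windows of all genes, and belonged to *Gclm*, *Gstm5*, *Mgst1*, *Mt2*, *Nfe2l2*, *Prdx1*, *Sod1*, *Srxn1* and *Txnrd1*. These matches are matches of letters and not measured binding sites. The stretches of 5 of these genes are shown because they belong to the factor itself and to genes of 4 other groups described below. They read 5′ to 3′ along the strand of the gene with the match in capitals, which appears as its reverse complement, GCNNNGTCA, where the match lies on the other strand.
*Nfe2l2* (chr2:75704875-75704913, GRCm38.p6, - strand): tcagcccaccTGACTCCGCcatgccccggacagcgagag
*Gclm* (chr3:122245403-122245451, GRCm38.p6, + strand): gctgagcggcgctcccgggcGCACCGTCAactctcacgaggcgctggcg
*Prdx1* (chr4:116685446-116685494, GRCm38.p6, + strand): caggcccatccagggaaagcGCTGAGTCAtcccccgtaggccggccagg
*Txnrd1* (chr10:82859094-82859142, GRCm38.p6, + strand): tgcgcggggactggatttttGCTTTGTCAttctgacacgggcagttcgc
*Mt2* (chr8:94172519-94172567, GRCm38.p6, + strand): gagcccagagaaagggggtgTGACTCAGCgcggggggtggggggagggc
In *Prdx1* and *Mt2* the match also holds the letters TGAGTCA or TGACTCA of an AP-1 type site, the only 2 of the 9 genes in which it does. Those letters, on either strand, lay in 5.2% of all windows. The windows of *Keap1*, *Nqo1*, *Cybb* and *Nox4* held no match in these letters.

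Levels are given as FPKM, the unit of the deposited files, in which fragments are divided by a length and by the number of mapped fragments of the library. In genes with 1 transcript the steps of the values matched an exon length shortened by 224 to 229 bases, depending on the mouse. FPKM is set per length and can be compared between genes. The span of 12 of the 39 genes overlaps another annotated gene, as *Keap1* does *Gm16754* and *Prdx2* does *Rnaseh2a* on the other strand, and whether fragments were assigned by strand is not given in the sources used here. Values of single mice follow the order of the replicate numbers, 1 to 3 for WT and 1 to 2 for *Ins2*-AKITA. Differences are log2 fold changes of *Ins2*-AKITA over WT on the log2(FPKM + 1) scale, fitted with limma over the 16286 symbols that had a mean of at least 1 FPKM, with the standard error (SE) and a 95% interval. The adjusted p is Benjamini-Hochberg's over these 16286 symbols. An exact two-sided permutation test of the difference in mean log2(FPKM + 1) was run for single genes, in which 3 against 2 mice cannot give a p below 0.1.

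No antioxidant or redox gene passed the test, and most levels of both genotypes lay on top of each other. In limma 0 of the 38 genes tested had an adjusted p under 0.05, where 4 of all 16286 symbols did (0.0246%), and the smallest adjusted p was 0.90. At an unadjusted p under 0.05 the count was also 0 of 38, against 4.46% of all symbols. The fold change was positive for 20 genes and negative for 18, with a median of 0.01 beside -0.03 for all symbols and a range from -1.50 to 0.74. All 38 intervals included 0, and 25 lay within 1 of 0, which is a doubling or halving of FPKM + 1. For the other genes a difference beyond that size lay inside the interval.

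The values outside the WT range belonged to 6 genes. Both *Ins2*-AKITA mice were above all WT mice in 3 genes, *Keap1*, *Prdx1* and *Srxn1*, where 9.24% of all tested symbols were. Both were below all WT mice in *Hmox1* and *Cybb*, where 10.3% of all tested symbols were, and in *Nox4*, which was too low to be tested. Together the 5 tested genes were 13.2% of the 38, against 19.5% of all symbols. The plot of levels by mouse gives each of the 39 genes, and the 6 genes are drawn apart on linear axes.

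**Figure D1:**
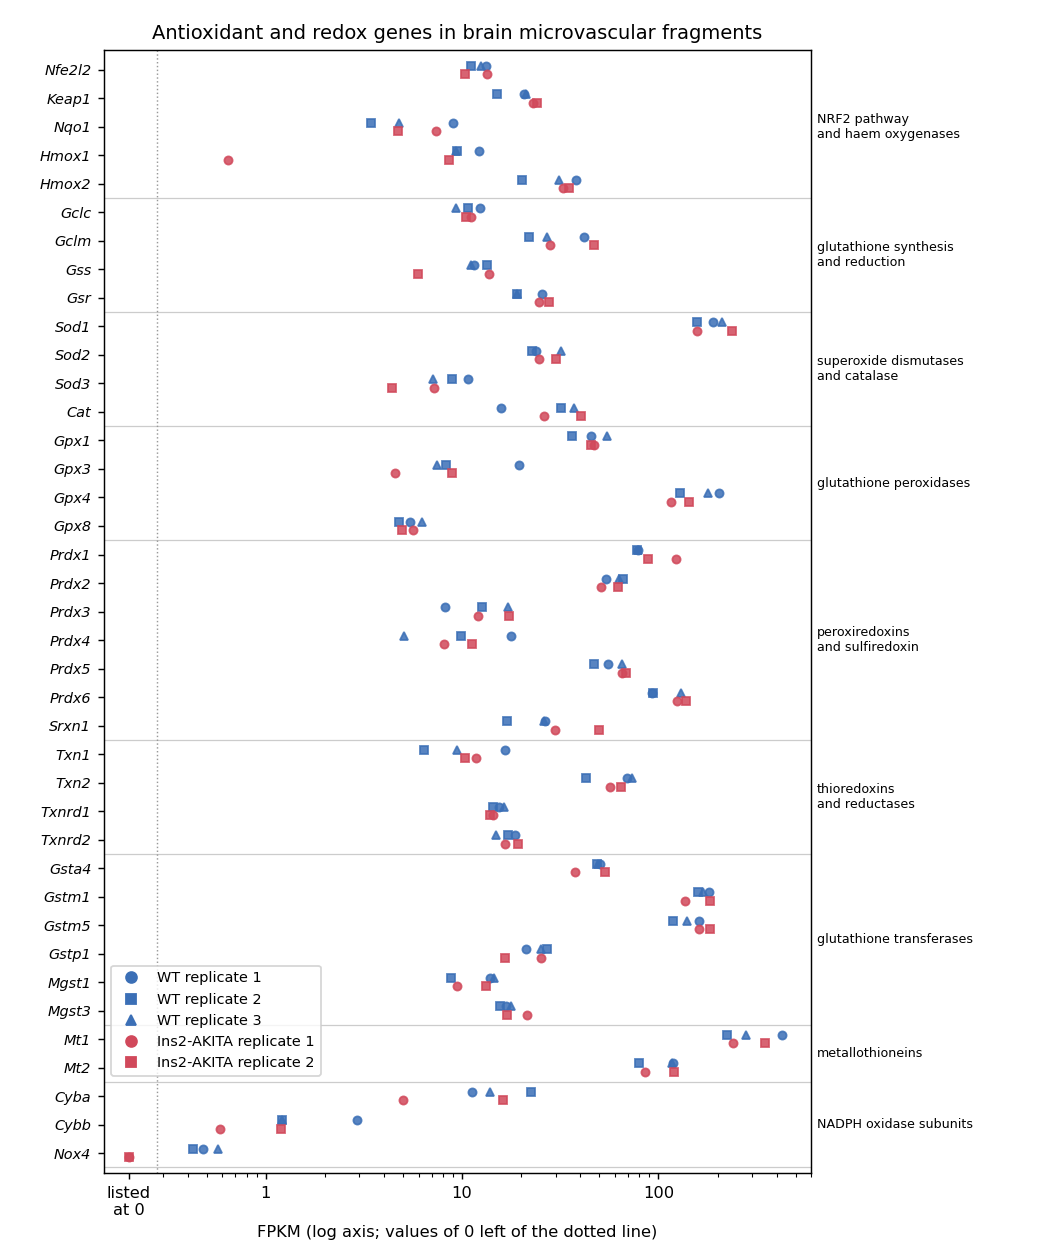
FPKM of each of the 39 genes (rows, grouped by role) on a log axis, with WT mice in blue, *Ins2*-AKITA mice in red and the marker shape giving the replicate number; values of 0 stand left of the dotted line. The red points lie among or next to the blue ones in nearly every row, apart from *Hmox1* at 0.642 in *Ins2*-AKITA replicate 1 and *Nox4*, listed at 0 in both *Ins2*-AKITA mice.

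**Figure D2:**
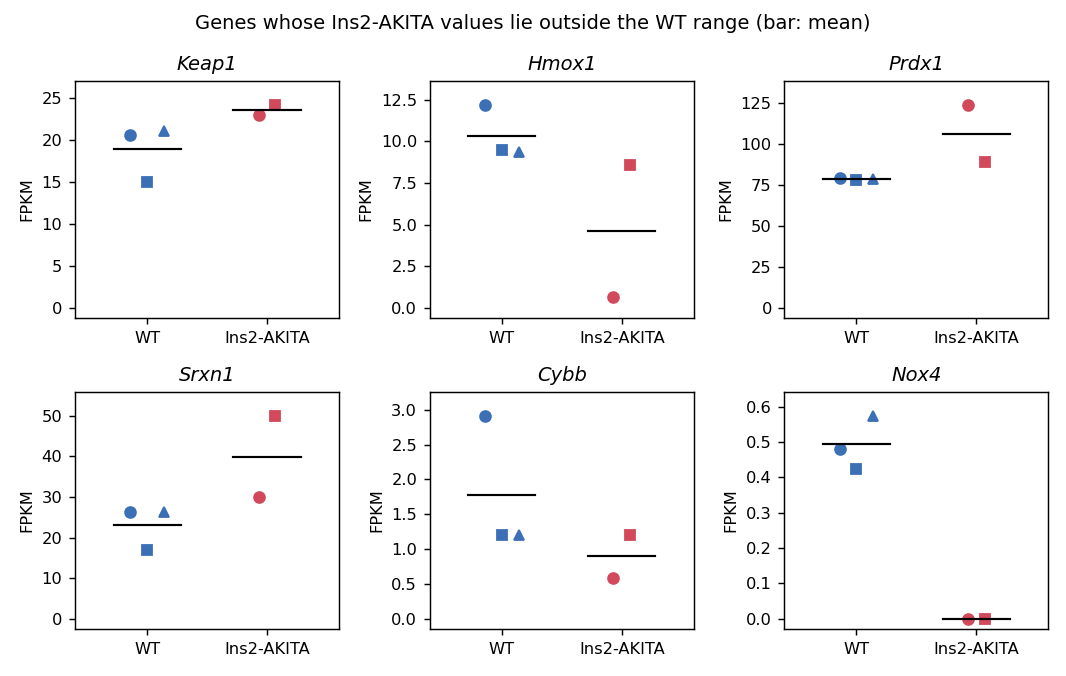
FPKM on linear axes from 0 of the 6 genes whose *Ins2*-AKITA values both lie outside the WT range, with a point for each mouse and a bar at the group mean. The gap between the groups is widest against the WT spread in *Prdx1*, where the WT mice lie between 77.9 and 79.1, and narrowest in *Cybb*.

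In the NRF2 pathway and the haem oxygenases the largest separation was a single low value of *Hmox1*. *Hmox1* encodes the inducible haem oxygenase, which breaks haem down to biliverdin, iron and carbon monoxide (chromosome 8, 77617490 to 77624495, NCBIM37). *Hmox1* measured 12.2, 9.47 and 9.33 FPKM in WT, against 0.642 and 8.57 in *Ins2*-AKITA. Both *Ins2*-AKITA mice were below the 3 WT mice, but replicate 2 lay next to them and replicate 1 far below. The fold change was -1.50 ± 0.71 (SE, 95% interval -3.22 to 0.21), with an adjusted p of 0.90 in limma and a permutation p of 0.1, the smallest possible. Without *Ins2*-AKITA replicate 1 it was -0.23, and without replicate 2 it was -2.78. In TPM (each mouse scaled to the same sum) it was 0.25, below the median of 1.07 that all symbols had there. The value of replicate 1 corresponds to at most about 1.4 fragments over the exons of the gene. The same count was about 21.3 in replicate 2 and between 24.2 and 51.4 in WT. These counts take all exons together, 2161 bases, whereas the longest of its 4 transcripts has 1606, so all are upper limits. The value of replicate 1 lies under the 1.37 FPKM that 3 fragments over all exons would have given in that library. The fold changes that include it thus rest on a level that was not measurable at this depth.

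*Keap1*, the sensor that targets NRF2 for degradation (chromosome 9, 21034174 to 21043776), measured 20.6, 14.99 and 21.05 FPKM in WT, against 22.9 and 24.1 in *Ins2*-AKITA. The *Ins2*-AKITA values stood next to each other, above WT replicates 1 and 3 by little and above replicate 2 by more. Its fold change was 0.32 ± 0.23 (SE, 95% interval -0.24 to 0.88), with an adjusted p of 0.90 and an exact permutation p of 0.3, and was 0.17 without WT replicate 2. *Hmox2*, the constitutive haem oxygenase and the highest of this group in mean FPKM, measured 37.9, 20.3 and 31.3 FPKM in WT, against 32.6 and 34.9 in *Ins2*-AKITA. Its *Ins2*-AKITA values lay inside the WT range. *Nfe2l2* itself lay between 10.4 and 13.4 FPKM over all 5 mice, both extremes being *Ins2*-AKITA mice, and its fold change was -0.05 ± 0.24 (SE, 95% interval -0.62 to 0.53). *Nqo1*, a quinone reductase often read as an NRF2 target, ranged from 3.42 to 9.03 FPKM, and both of those values were WT mice. Its counts were low, from 6 to 18 fragments a mouse.

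Among the genes of glutathione synthesis and reduction, 3 fold changes were positive and 1 negative, and all groups overlapped. *Gclm*, the modifier subunit of glutamate-cysteine ligase and the highest of the 4, measured 41.9, 22.00 and 26.98 FPKM in WT, against 28.1 and 47.1 in *Ins2*-AKITA. The upper *Ins2*-AKITA mouse was the highest of the 5 and the other lay between WT replicates 3 and 1. *Gsr*, the reductase that restores glutathione, measured 25.5, 18.96 and 19.1 FPKM in WT, against 24.8 and 27.8 in *Ins2*-AKITA. Its *Ins2*-AKITA values were the highest and the third highest of the 5, with WT replicate 1 between them, and the fold change was 0.31 ± 0.22 (SE, 95% interval -0.23 to 0.85). *Gss*, glutathione synthetase, measured 11.4, 13.4 and 11.1 FPKM in WT, against 13.7 and 5.96 in *Ins2*-AKITA. *Ins2*-AKITA replicate 2 had the lowest value and replicate 1 the highest, so the mean difference of -0.35 rested on 1 mouse and became 0.19 without it. *Gclc*, the catalytic subunit of the ligase, lay between 9.33 and 12.3 FPKM, with a fold change of 0.01 ± 0.24 (SE, 95% interval -0.57 to 0.58).

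The superoxide dismutases differed in level by more than an order of magnitude between each other, and overlapped between genotypes. *Sod1*, the cytosolic copper-zinc enzyme, measured 189.6, 158 and 211 FPKM in WT, against 158 and 236 in *Ins2*-AKITA. Its fold change was 0.06 ± 0.25 (SE, 95% interval -0.53 to 0.66). *Sod2*, the mitochondrial manganese enzyme, lay between 22.7 and 31.9 FPKM. *Sod3*, the extracellular enzyme that is held at the vessel wall matrix, measured 10.8, 8.83 and 7.14 FPKM in WT, against 7.16 and 4.42 in *Ins2*-AKITA. The lowest value was *Ins2*-AKITA replicate 2, while replicate 1 was level with WT replicate 3 and above it by less than 0.1 FPKM. These values rest on 42, 39 and 68 fragments in WT and 27 and 19 in *Ins2*-AKITA, and the fold change was -0.56 ± 0.32 (SE, 95% interval -1.33 to 0.21), with an exact permutation p of 0.3. It was -0.26 without *Ins2*-AKITA replicate 2 and -0.85 without replicate 1. *Cat*, catalase of the peroxisome, measured 15.8, 31.9 and 37.1 FPKM in WT, against 26.1 and 40.5 in *Ins2*-AKITA. WT replicate 1 was the lowest and the other 4 mice were mixed.

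Of the glutathione peroxidases, 3 of 4 fold changes were negative, with a median of -0.21 beside -0.03 for all symbols. *Gpx4*, which reduces lipid hydroperoxides in membranes and was the highest of the 4, measured 204, 128 and 178 FPKM in WT, against 116 and 143 in *Ins2*-AKITA. *Ins2*-AKITA replicate 1 was the lowest mouse and replicate 2 lay between WT replicates 2 and 3. Its fold change was -0.37 ± 0.25 (SE, 95% interval -0.98 to 0.24), with an exact permutation p of 0.3. It was -0.23 without *Ins2*-AKITA replicate 1 and -0.56 without WT replicate 2. *Gpx3*, the secreted plasma form, measured 19.4, 8.298 and 7.44 FPKM in WT, against 4.54 and 8.85 in *Ins2*-AKITA. WT replicate 1 was far above the other 4 mice, and the fold change was -0.66 ± 0.48 (SE, 95% interval -1.82 to 0.49). It was -0.26 without that mouse and -0.25 without *Ins2*-AKITA replicate 1. *Gpx1*, the main cytosolic form, lay between 36.5 and 54.9 FPKM, with both *Ins2*-AKITA mice inside the WT range. *Gpx8*, of the endoplasmic reticulum, lay between 4.78 and 6.23 FPKM on 5 to 14 fragments a mouse, also with both *Ins2*-AKITA mice inside the WT range.

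The peroxiredoxins and sulfiredoxin held the gene with the smallest unadjusted p of the list, *Srxn1*, and had the highest median fold change of the 9 groups, 0.27, with 5 of 7 positive. Peroxiredoxins reduce peroxides with a reactive cysteine, and sulfiredoxin, the product of *Srxn1*, repairs that cysteine once it is overoxidised. *Srxn1* (chromosome 2, 151931252 to 151937112) measured 26.4, 17.02 and 26.2 FPKM in WT, against 29.9 and 49.96 in *Ins2*-AKITA. Both *Ins2*-AKITA mice were above all WT mice, replicate 1 by little and replicate 2 by far more. The means were 39.9 ± 14.2 FPKM (SD, n = 2) in *Ins2*-AKITA and 23.2 ± 5.36 (SD, n = 3) in WT, a ratio of 1.72. The fold change was 0.74 ± 0.31 (SE, 95% interval -0.02 to 1.49), with an unadjusted p of 0.054 in limma, an adjusted p of 0.90 and a permutation p of 0.1. Without *Ins2*-AKITA replicate 2 it was 0.38, and without replicate 1 it was 1.1.

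*Prdx1*, a cytosolic peroxiredoxin (chromosome 4, 116358149 to 116373427), measured 79.1, 77.9 and 78.3 FPKM in WT, against 123 and 88.7 in *Ins2*-AKITA. The 3 WT mice were nearly equal, with a coefficient of variation of 0.776%, and both *Ins2*-AKITA mice were higher but far apart from each other. Mean *Prdx1* was 1.35 times as high in *Ins2*-AKITA as in WT. The fold change was 0.41 ± 0.20 (SE, 95% interval -0.08 to 0.90), with an adjusted p of 0.90 in limma and a permutation p of 0.1, and it was 0.18 without *Ins2*-AKITA replicate 1. *Prdx6*, which also reduces phospholipid hydroperoxides and was the highest of the group, measured 93.1, 93.4 and 130.2 FPKM in WT, against 124 and 138 in *Ins2*-AKITA. WT replicate 3 was level with the *Ins2*-AKITA mice and the other 2 WT mice were lower. *Prdx5*, found in mitochondria, peroxisomes and cytosol, ranged from 46.9 to 68.7 FPKM, with a fold change of 0.27 ± 0.20 (SE, 95% interval -0.23 to 0.76). *Prdx3*, the mitochondrial form, ranged from 8.21 to 17.4 FPKM. *Prdx2*, abundant in red cells and neurons, ranged from 50.9 to 65.9 FPKM. *Prdx4*, of the endoplasmic reticulum, ranged from 5.06 to 17.7 FPKM, and both ends of that range were WT mice.

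The thioredoxins and their reductases overlapped between the genotypes in all 4 genes. Their fold changes lay between -0.11 and 0.13, with the widest interval, that of *Txn1*, from -0.82 to 1.08, and the smallest adjusted p was 0.94. *Txn1*, the cytosolic thioredoxin, measured 16.6, 6.42 and 9.37 FPKM in WT, against 11.8 and 10.4 in *Ins2*-AKITA, and both *Ins2*-AKITA mice lay within the spread of WT. *Txn2*, its mitochondrial counterpart and the highest of the 4, measured 68.9, 42.9 and 73.4 FPKM in WT, against 56.6 and 64.7 in *Ins2*-AKITA. Again the WT mice enclosed both others. *Txnrd1*, the cytosolic reductase, measured 15.4, 14.3 and 16.4 FPKM in WT, against 14.4 and 13.8 in *Ins2*-AKITA, with a fold change of -0.11 ± 0.21 (SE, 95% interval -0.61 to 0.39). *Txnrd2*, the mitochondrial reductase, ranged from 14.8 to 19.2 FPKM.

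For the glutathione transferases, which couple glutathione to electrophiles, all 6 intervals lay within 1 of 0. *Gstm1*, the highest of them, measured 181, 159 and 169 FPKM in WT, against 137 and 184 in *Ins2*-AKITA. Its lowest and highest values were both *Ins2*-AKITA mice. *Gstm5* measured 161, 118 and 139.8 FPKM in WT, against 160.2 and 184 in *Ins2*-AKITA. *Ins2*-AKITA replicate 2 was the highest mouse and replicate 1 was almost level with WT replicate 1, and the fold change was 0.31 ± 0.20 (SE, 95% interval -0.19 to 0.80). *Gstp1* measured 21.1, 27.2 and 25.4 FPKM in WT, against 25.2 and 16.6 in *Ins2*-AKITA, with *Ins2*-AKITA replicate 2 as the lowest mouse and replicate 1 within the WT range. *Gsta4*, which acts on lipid aldehydes, ranged from 37.6 to 53.4 FPKM, and both ends of the range were *Ins2*-AKITA mice while the WT mice lay between 48.6 and 50.4. The microsomal *Mgst1* and *Mgst3* ranged from 8.80 to 14.5 and from 15.6 to 21.4 FPKM. *Gstm1*, *Gstm5* and *Gstp1* belong to families with near-identical copies, and so do *Prdx1*, *Prdx6* and *Txn1*, so that their reads can be split between copies and their levels are uncertain to that extent.

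The metallothioneins, small cysteine-rich proteins that bind zinc and copper and scavenge radicals, included the highest gene of the list. *Mt1* measured 427, 224 and 279 FPKM in WT, against 238 and 349.5 in *Ins2*-AKITA, a mean above that of 98.7% of the tested symbols. Its highest and lowest values were WT mice. *Mt2* measured 119, 79.6 and 117 FPKM in WT, against 85.5 and 121 in *Ins2*-AKITA. The fold changes of -0.05 and -0.03 had intervals from -0.85 to 0.75 and from -0.67 to 0.61.

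The NADPH oxidase subunits included the 2 lowest genes of the list, and all 3 means were lower in *Ins2*-AKITA, on few fragments. In TPM the fold changes of *Cybb* and *Cyba* were 0.23 and 0.78, both below the median of 1.07 of all symbols there. *Nox4*, the oxidase subunit that makes hydrogen peroxide and is known from vascular cells (chromosome 7, 94394606 to 94547220), was listed at 0.481, 0.425 and 0.573 FPKM in WT, against 0 and 0 in *Ins2*-AKITA. At a mean under 1 FPKM it was not tested. The WT values correspond to at most about 4.63, 4.63 and 13.5 fragments over its exons. These counts take all exons together, 8471 bases, whereas the longest of its 10 transcripts has 3921. Over all exons 3 fragments would have given 0.323 and 0.283 FPKM in the *Ins2*-AKITA libraries, and more over any single transcript. A level like that of WT may therefore have gone undetected there. *Cybb*, the catalytic subunit of the phagocyte oxidase (chromosome X, 9012378 to 9064897), measured 2.91, 1.205 and 1.204 FPKM in WT, against 0.588 and 1.202 in *Ins2*-AKITA. WT replicate 1 was higher than all others, and *Ins2*-AKITA replicate 2 was below WT replicates 2 and 3 only in the third decimal. The fold change was -0.51 ± 0.53 (SE, 95% interval -1.79 to 0.77), with an exact permutation p of 0.4. It was -0.24 without WT replicate 1 and -0.28 without *Ins2*-AKITA replicate 1. *Cyba*, the partner subunit that anchors these oxidases in the membrane, measured 11.3, 22.5 and 13.9 FPKM in WT, against 4.997 and 16.2 in *Ins2*-AKITA. *Ins2*-AKITA replicate 1 was the lowest mouse, on about 3 fragments, and replicate 2 was higher than WT replicates 1 and 3.

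**Figure D3:**
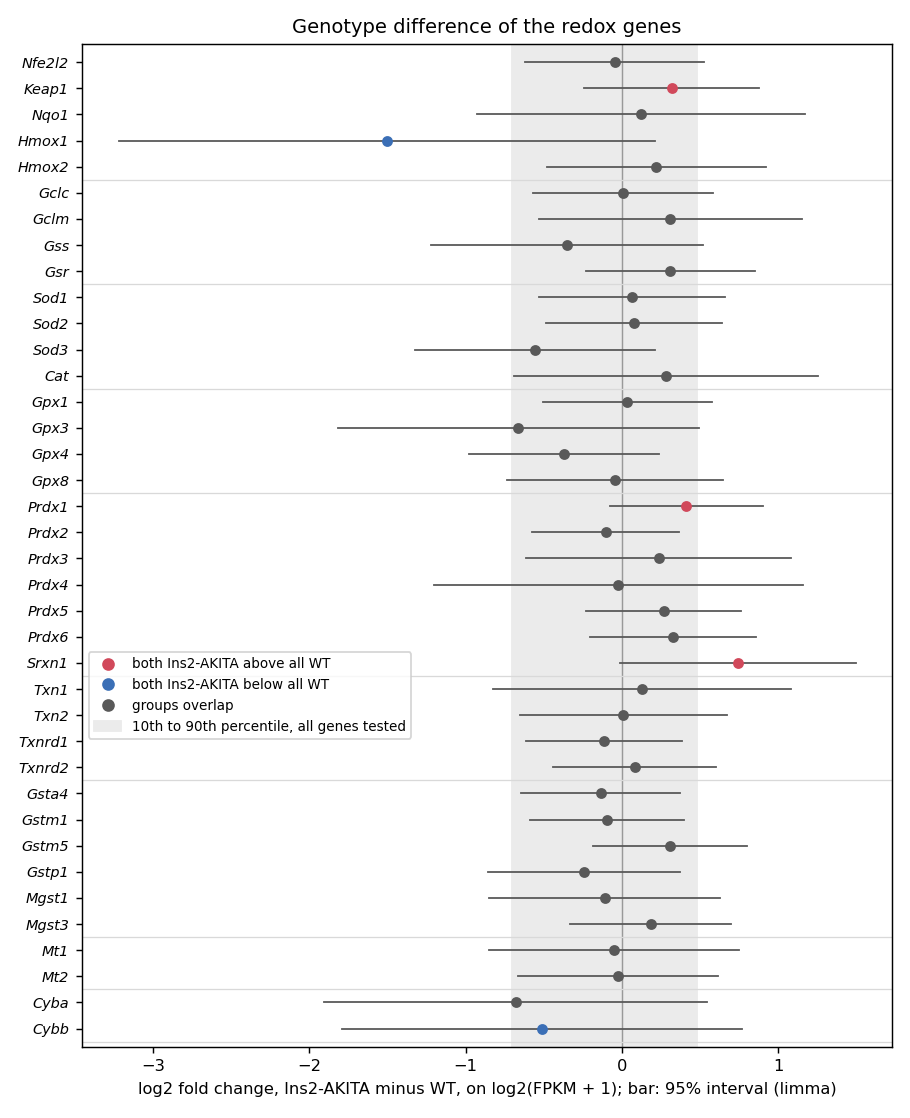
Log2 fold change of *Ins2*-AKITA over WT on the log2(FPKM + 1) scale for the 38 tested genes, grouped by role, with bars for the 95% interval of limma. Every bar crosses the line at 0, and the widest bars belong to *Hmox1*, *Cybb* and *Cyba*.

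The 5 mice were not alike in these genes. WT replicate 2 was the lowest mouse in 19 of the 39 genes (48.7%), against 17.6% of all tested symbols. *Ins2*-AKITA replicate 2 was the highest in 14 (35.9%), against 22.4% of all symbols. With WT replicate 2 left out, 3 of the 38 tested genes lay above the remaining WT mice and 6 below, where 13.8% and 14.5% of all symbols did. With *Ins2*-AKITA replicate 1 left out, 15 of the 38 lay above the WT range and 7 below, where 26.1% and 27.9% of all symbols did. The shares of all symbols are higher here because a single mouse is outside a range more often than a pair. Beside them the share of the 38 genes was larger above the range and smaller below it, and the cause was not tested.

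The wider redox system was read through 86 further genes, of which 78 could be tested. In limma 0 of the 78 passed at an adjusted p under 0.05, the smallest being 0.90. The fold change was positive for 40 and negative for 38, with a median of 0.03. By role the medians lay between -0.02 for the methionine sulfoxide reductases and other repair genes and 0.35 for the glutaredoxins and thioredoxin-like genes, where 5 of 9 were positive. At an unadjusted p under 0.05, 2 were higher in *Ins2*-AKITA, where 1.53% of all symbols were, and 3 were lower, where 2.93% of all symbols were. The values lay outside the WT range in 22 of the 78 (28.2%, against 19.5% of all symbols), 11 of them above and 11 below.

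*Cul3*, the ligase subunit that acts with KEAP1, measured 43.8, 60.97 and 61.5 FPKM in WT, against 81.3 and 99.2 in *Ins2*-AKITA. Both *Ins2*-AKITA mice were clearly above the WT mice. Its fold change was 0.70 ± 0.23 (SE, 95% interval 0.15 to 1.25), with an adjusted p of 0.90 in limma and a permutation p of 0.1. *Gsto1*, an omega-class glutathione transferase, measured 8.96, 4.75 and 7.72 FPKM in WT, against 16.6 and 13.04 in *Ins2*-AKITA, also without overlap. Its fold change was 0.99 ± 0.32 (SE, 95% interval 0.21 to 1.76), with the same adjusted and permutation p.

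The lower genes were *Selm*, a selenoprotein of the endoplasmic reticulum, *Ggt7*, a member of the gamma-glutamyltransferase family, and *Abcc4*, an efflux pump of organic anions. *Selm* measured 44.2, 29.1 and 33.5 FPKM in WT, against 20.3 and 18.8 in *Ins2*-AKITA. *Ggt7* measured 53.5, 28.4 and 42.98 FPKM in WT, against 22.1 and 19.9 in *Ins2*-AKITA. *Abcc4* measured 14.8, 18.8 and 14.4 FPKM in WT, against 10.6 and 9.04 in *Ins2*-AKITA. In each of the 3 both *Ins2*-AKITA mice were below all WT mice. The fold changes were -0.82, -0.91 and -0.64, with SE of 0.24, 0.29 and 0.24 and an adjusted p of 0.90 for each in limma, and in TPM they were 0.73, 0.65 and 0.73, below the median of 1.07 of all symbols there. Without *Ins2*-AKITA replicate 2 the count at an unadjusted p under 0.05 was 0 of the wider list.

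*Txnip*, the thioredoxin-binding protein whose gene is known to respond to glucose, measured 114, 28.8 and 24.8 FPKM in WT, against 24.96 and 21.8 in *Ins2*-AKITA. WT replicate 1 stood far above the other 4 mice, which lay between 21.8 and 28.8 FPKM. The fold change of -0.87 had an interval from -2.415 to 0.67, with an adjusted p of 0.90 in limma, and was -0.19 without that WT mouse.

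**Figure D4:**
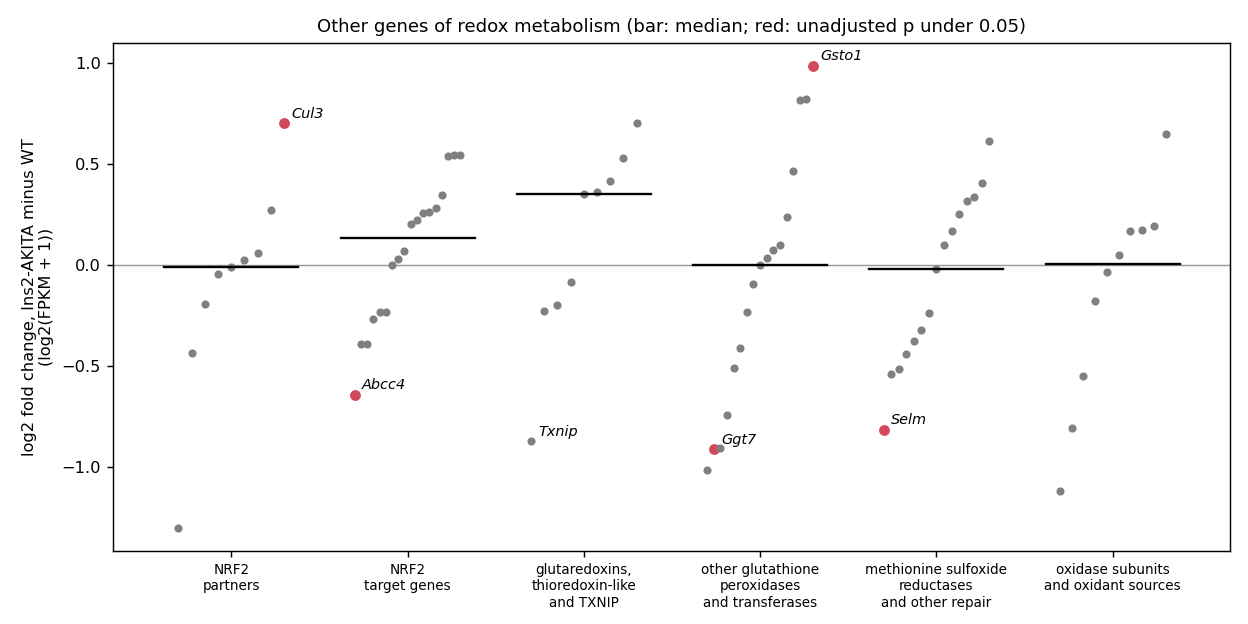
Log2 fold change (log2(FPKM + 1) scale) of the 78 tested genes of the wider redox list, each a point, grouped in 6 roles, with the named genes labelled. Points fall on both sides of 0 in every role, 40 above and 38 below in all.

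The libraries differed in other ways that move with genotype. The summed FPKM of 8 astrocyte markers was 2198 to 3056 in WT and 3439 to 4036 in *Ins2*-AKITA, with 4 of 8 markers above the WT range. That of 8 pericyte and smooth muscle markers was 408.2 to 481.3 in WT and 291.6 to 373.2 in *Ins2*-AKITA, with 4 of 8 below. These 4 were *Acta2*, *Tagln*, *Myh11* and *Vtn*, while *Pdgfrb*, *Rgs5*, *Kcnj8* and *Abcc9* overlapped between the genotypes. The sums of 8 endothelial markers overlapped, at 383 to 663.1 in WT and 334.6 to 419.9 in *Ins2*-AKITA. Of these markers 2, *Pecam1* and *Cdh5*, were below all WT mice and 0 above. The mean endothelial sum was 0.75 times that of WT, beside 0.76 times for pericyte and smooth muscle markers. Sums of microglia, oligodendrocyte, neuron and fibroblast markers also overlapped. Over all 5 mice the oligodendrocyte sums were 1926 to 2613 and the neuron sums 758 to 912, above the endothelial sums. Sums of erythroid markers were 35.1 to 67.7 in WT and 25.2 to 32.4 in *Ins2*-AKITA, and sums of immediate early genes were 167 to 193.5 and 139.2 to 142.8. Their part in the values above was not tested. *Ins2* itself, the gene that carries the AKITA mutation, was at 0 FPKM in 4 mice and 1.51 in WT replicate 3. The AKITA allele is a point mutation, which a level per gene does not show, so the genotype could not be checked from these values. The estimated depth was between 1127410 and 2850141 fragments, and small and ribosomal RNA held between 40.7% and 96.7% of the summed FPKM, lowest in *Ins2*-AKITA replicate 2 and WT replicate 3. TPM moved the median fold change of all symbols to 1.07 and gave 16 of the 30 named genes that were tested the opposite sign, *Hmox1*, *Cybb* and *Cyba* included.

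**Figure D5:**
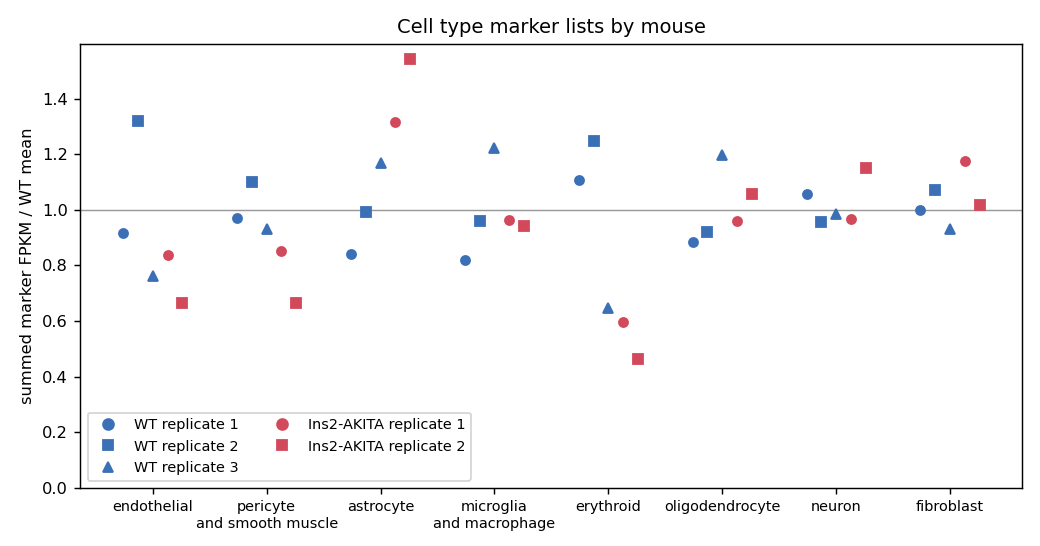
Summed FPKM of 8 lists of cell type markers, divided by the WT mean of the list, with a point for each mouse (WT blue, *Ins2*-AKITA red) and a line at the WT mean. The *Ins2*-AKITA points lie above the WT points for astrocytes and below them for pericyte and smooth muscle and for erythroid markers, and overlap them in the other lists.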

How the data were processed

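Per the labels and the methods of the study, total RNA was depleted of ribosomal RNA and tRNA and made into stranded libraries. Reads were mapped to NCBIM37 with TopHat2 2.0.4, duplicates were removed with Picard 1.92 and genes were tested with Cufflinks 2.2.1. The authors deposited 1 FPKM value for each gene in each mouse. The program that made them and the annotation release are not given in the sources used here. Removing duplicates can lower abundant short genes.

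Of 37982 identifiers 37197 were matched to GENCODE vM1, and rows of 1 symbol were summed. limma 3.58.1 (lmFit, eBayes with a trend, two-sided) compared the genotypes on log2(FPKM + 1), without covariates, and was checked on simulated data. FPKM steps of genes with 1 transcript gave the estimated fragments per mouse, and in each mouse at least 97.3% of values under 20 fragments were then whole within 0.05. For genes with several transcripts the counts took all exons together. Where no transcript holds them all, the counts are upper limits and the floors lower limits. Floors of 3 fragments cover counting error only. The labels number the libraries of a genotype without naming animals, so p-values measure the spread between libraries, which may be partly technical.

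The genes, the wider list, the markers and the tests were chosen with earlier results of these data known. Values of every mouse were printed for genes outside the WT range, for those at an unadjusted p under 0.05, for the 2 largest fold changes and the highest mean of each role, and for genes of the wider list at an unadjusted p under 0.05 (at most 4 per direction) with *Txnip*. The other genes are given by range. The alternatives were another pseudocount, 2 other filters, TPM, 3 other scalings, no trend, a replicate block, the highest row per symbol and each mouse left out. Scaling to the protein-coding sum was chosen after seeing the data. Replicate numbers were not used as pairs, since neither the labels nor the methods name pairs.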

Additional observations from a re-analysis of the deposited data

How the results depend on the processing

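In limma 0 of the antioxidant genes and 0 of the wider list had an adjusted p under 0.05 under every alternative that was run, and the smallest adjusted p of the antioxidant genes was 0.27, in TPM. At an unadjusted p under 0.05 the count of antioxidant genes was 0 of 38 except for 1 in TPM and 0 to 3 with a mouse left out, and that of the wider list, 5 of 78, was 14 in TPM and 0 to 10 with a mouse left out. The share of all symbols at that p was 4.46%, against 11.7% in TPM and 3.11% to 8.61% with a mouse left out. The median fold change of the antioxidant genes, 0.01, was 1.46 in TPM beside 1.07 for all symbols, and -0.11 to 0.11 with a mouse left out. The count above the WT range, 3, was 10 in TPM, 5 after median-ratio scaling, 5 after quantile normalization and 3 to 15 with a mouse left out. Of all symbols 9.24% were above, against 33.2%, 9.27%, 10.5% and 13.8% to 26.1%. The count below, 2, was 0 in TPM, 1 with a mean of at least 5 FPKM and 3 to 8 with a mouse left out. Of all symbols 10.3% were below, against 0.632%, 10.4% and 14.5% to 27.9%.

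For the 30 named genes, 411 of 449 fold changes kept their sign and 38 did not, 16 of them in TPM. The replicate block gives the same fold changes as leaving out WT replicate 3, and both enter this count. In TPM the fold change was positive for *Hmox1* (0.25), *Gss* (0.87), *Sod3* (0.63), *Gpx3* (0.69), *Gpx4* (1.31), *Txnrd1* (1.18), *Gstm1* (1.59), *Gstp1* (1.18), *Mt1* (1.65), *Mt2* (1.62), *Cyba* (0.78), *Cybb* (0.23), *Abcc4* (0.73), *Txnip* (0.71), *Ggt7* (0.65) and *Selm* (0.73). It was 0.00047 for *Mt2* after median-ratio scaling, and for *Txn2* it was -0.018 after quantile normalization and -0.036 after scaling to the protein-coding sum. With 1 mouse left out at a time the range crossed 0 for *Hmox2* (-0.027 to 0.41), *Gclm* (-0.056 to 0.67), *Gss* (-0.89 to 0.19), *Sod1* (-0.22 to 0.35), *Cat* (-0.077 to 0.59), *Txn1* (-0.16 to 0.46), *Txn2* (-0.23 to 0.15), *Gstm1* (-0.31 to 0.12), *Gstp1* (-0.53 to 0.044), *Mt1* (-0.33 to 0.22), *Mt2* (-0.27 to 0.22) and *Cyba* (-1.44 to 0.079). Where a value moved or changed sign, the cause was not tested.

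The genotypes share replicate numbers 1 and 2. Deviations from the group means of same-numbered mice correlated at 0.051 and -0.034 over symbols. With 2 *Ins2*-AKITA mice their deviations mirror each other, so these correlations can neither show nor exclude pairs. The numbers were not taken as pairs because neither the labels nor the methods name any. With the replicate block, 9 of 78 genes of the wider list had an unadjusted p under 0.05, as had 7.67% of all symbols, and *Mt2* had a fold change of 0.061. The block changed no call at an adjusted p under 0.05. WT replicate 3 has no same-numbered *Ins2*-AKITA mouse, so it has no weight in the fold changes of the block. They equal those without that mouse, as 0.40 for *Keap1* and 0.061 for *Mt2* in both. With 3 and 2 mice and 1127410 fragments in the shallowest library, differences below the intervals given, and levels under 3 fragments, could not be detected.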
